A study of Arabidopsis thaliana with 44 samples.

Results

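The expression of 8 genes of the shoot meristem of Arabidopsis thaliana was examined on Agilent 22 K microarrays. The genes were the class I KNOX genes STM (AT1G62360), KNAT1 (AT4G08150), KNAT2 (AT1G70510) and KNAT6 (AT1G23380), the class II KNOX genes KNAT3 (AT5G25220) and KNAT4 (AT5G11060), and WUS (AT2G17950) and CLV3 (AT2G27250). They were chosen by name for their place in the pathway, with earlier results of these data known. Each had 1 probe among the 21500 gene probes of the microarray. Of the 12 microarrays, 8 were self-self microarrays, labelled as holding the same RNA in both dye channels, with 2 each for actively growing callus, for inflorescence (immature buds of mixed stages), and for leaves and roots of untreated plants at 21 day of age. Another pair of microarrays compared root (red, Cy5) directly with leaf (green, Cy3), and the last pair compared silique collected 24 to 48 h after fertilization (red) with inflorescence (green). Both microarrays of a direct pair had the same dye orientation, so that dye bias was not balanced within a pair. A and B denote the microarrays of one RNA sample or RNA pair, and they were technical replicates, so that every test below is against technical error only and not against variation between plants. The tissues were whole organs or cultures, in which fewer meristem cells and less RNA per cell cannot be told apart.

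The shoot apical meristem is the small group of dividing cells at the shoot tip from which leaves, stems and flowers form. KNOX genes encode homeodomain transcription factors. Class I members keep meristem cells from differentiating and are switched off where a leaf begins, whereas class II members are active in differentiating organs. WUS encodes a homeodomain protein of the organizing center below the stem cells, and CLV3 encodes a small secreted peptide made by the stem cells, which limits WUS through receptor kinases. KNOX proteins act with partners of the BELL homeodomain family, and they raise cytokinin and lower gibberellin activity in the meristem.

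Levels on self-self microarrays are given in NEU, the mean processed signal of both channels divided by its sum over all gene probes of that microarray and multiplied by 1000000. Between 97.4% and 99.8% of the gene probes were well above background in each channel of the self-self microarrays, against 70.5% to 76.0% in the silique channel. The image extraction shared a day for leaf, root and root/leaf, a different day for callus and inflorescence, and a later one for silique/inflorescence. Day and tissue therefore cannot be told apart except for leaf with root and for callus with inflorescence. By slide barcode, both callus, both inflorescence and leaf microarray A shared a number series (the main slide series). Leaf microarray B and both root microarrays lay outside it. Slide series and tissue thus cannot be told apart for root against callus or inflorescence, and can be only in part for root against leaf. The labelled tissues were checked with marker genes fixed for each except callus, for which none were fixed. The 4 tested root markers were all higher in root than in leaf on the direct microarrays, but only 2 of them passed the test on the self-self microarrays. All 5 leaf markers were lower in root than in leaf on the direct microarrays, but on the self-self microarrays only CAB1 passed that test. CAB1 was also the only leaf marker that passed the test between inflorescence and leaf, while all 5 were lower in callus than in leaf. All 5 silique markers were higher in silique than in inflorescence. AP1, AG, AP3 and PI (4 of 6 inflorescence markers) were higher in inflorescence than in leaf. The floral regulator LFY was lower and the tapetum gene A9 did not pass the test. Root microarray A stood apart. The summed level of the 5 leaf markers was 4377 NEU on it against 152 NEU on root microarray B and 7495 to 7668 NEU on the leaf microarrays, and its red/green ratio, which should scatter around no difference, had a Pearson's correlation of 0.62 across gene probes with the direct root/leaf ratio, against 0.0020 for root microarray B. The leaf markers were high in both of its channels, with summed signals of 395044 in green and 117362 in red against 8898 and 8682 on root microarray B. Whether either channel of root microarray A held other RNA was not tested. Values without this microarray are given where they changed a call or moved a fold of the 8 genes by over 1.5 times.

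STM, which is needed to form and keep the shoot meristem, was highest in inflorescence. It measured 52.4 (A) and 63.9 (B) NEU in inflorescence, 14.5 and 15.1 in leaf, 9.95 and 9.43 in root, and 6.16 and 3.15 in callus. Both inflorescence microarrays were above all 6 others. The level in inflorescence was 13.1-fold that of callus (log2 difference 3.71 ± 0.32, SE, adjusted p = 0.00019), 5.98-fold that of root (adjusted p = 0.0011) and 3.92-fold that of leaf (adjusted p = 0.0047; limma with Benjamini-Hochberg adjustment here and below). Leaf and root, next to each other in this order, did not pass the test (log2 difference 0.61, adjusted p = 0.19). STM was lower in callus than in root (log2 difference -1.14, adjusted p = 0.024), a call that was lost without root microarray A (-1.10, adjusted p = 0.072), without root microarray B (adjusted p = 0.062), without callus microarray B (-0.65, adjusted p = 0.067), and with quantile normalization (-0.57, adjusted p = 0.13).

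KNAT1, also known as BREVIPEDICELLUS for its part in stem and pedicel growth, had its highest levels in callus and inflorescence, which did not pass the test against each other. Callus gave 55.4 and 49.7 NEU and inflorescence 43.0 and 44.6, with a log2 difference of inflorescence over callus of -0.26 (95% interval of the fold 0.929 to 1.54 in favor of callus, adjusted p = 0.24). Leaf gave 8.61 and 8.79 NEU and root 4.73 and 4.38, so that the 4 microarrays of callus and inflorescence lay apart from the 4 of leaf and root. Callus was 11.5-fold above root (log2 difference 3.53 ± 0.15, SE, adjusted p = 4.3e-05) and 6.03-fold above leaf (adjusted p = 6.1e-05). Leaf was in turn above root (1.91-fold, adjusted p = 0.0055, and 0.012 without root microarray A).

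KNAT2, another class I gene, was highest in inflorescence, as was STM. Its level was 15.99 and 15.98 NEU in inflorescence, 4.76 and 3.84 in leaf, 4.00 and 3.58 in root, and 2.27 and 2.77 in callus. Inflorescence was above the other 3 tissues, by 6.37-fold over callus (adjusted p = 0.00016), 4.23-fold over root (adjusted p = 0.00065) and 3.74-fold over leaf (adjusted p = 0.0015). Among the others, KNAT2 was lower in callus than in leaf (log2 difference -0.77, adjusted p = 0.025), and this call was lost with quantile normalization (-0.17, adjusted p = 0.63) and in 4 of the 8 fits that each left out 1 microarray (adjusted p up to 0.11). Leaf and root did not pass the test (adjusted p = 0.57), nor did root and callus (adjusted p = 0.060).

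KNAT6, which acts in meristem maintenance and at organ boundaries, had its highest levels in callus, with 21.7 and 22.3 NEU. Inflorescence gave 15.7 and 13.8 NEU, root 2.98 and 4.35, and leaf 3.28 and 2.61. All 4 microarrays of callus and inflorescence were above all 4 of leaf and root. Callus was 7.53-fold above leaf (log2 difference 2.91 ± 0.25, SE, adjusted p = 0.00022) and 6.11-fold above root (adjusted p = 0.00051), and inflorescence was 5.03-fold above leaf and 4.08-fold above root (adjusted p = 0.0011 for both). Callus and inflorescence did not pass the test (adjusted p = 0.12), nor did root and leaf (adjusted p = 0.39).

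The class II gene KNAT3 was nearly level in 3 tissues and lower in root. It measured 42.8 and 41.4 NEU in callus, 41.4 and 48.4 in inflorescence, and 52.5 and 33.0 in leaf, against 15.3 and 20.3 in root. The root microarrays were below all 6 others. Inflorescence was 2.53-fold, callus 2.38-fold and leaf 2.36-fold above root (adjusted p = 0.0067, 0.0086 and 0.014), and the call of leaf over root was lost without root microarray A (log2 difference of root over leaf -1.03, adjusted p = 0.053). The other 3 tissues did not pass the test against each other (adjusted p = 0.78 to 0.97). The fold of callus over leaf had a 95% interval of 0.653 to 1.56.

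KNAT4, the other class II gene, was highest in leaf, where it measured 46.8 and 43.6 NEU. Inflorescence gave 27.5 and 30.0 NEU and callus 5.31 and 5.68. In root it was 15.8 NEU on microarray A and 5.02 on microarray B, the widest ratio between A and B of the 8 genes. Leaf was 8.23-fold above callus (log2 difference of callus over leaf -3.04 ± 0.48, SE, adjusted p = 0.0027). Leaf was 5.07-fold above root with both root microarrays (log2 difference of root over leaf -2.34, adjusted p = 0.013) and the log2 difference was -3.17 without root microarray A (adjusted p = 0.00034) and -1.51 without root microarray B (adjusted p = 0.0038), and the call was lost without leaf microarray A (-2.29, adjusted p = 0.058). With the red channel alone taken from root microarray A, it was -2.70 (adjusted p = 0.00097), although the leaf markers were high in that channel too. Inflorescence over root likewise moved from 1.69 (adjusted p = 0.028) to 2.51 without root microarray A and to 0.86 without root microarray B, and lost its call without inflorescence microarray A (1.75, adjusted p = 0.092) or B (1.62, adjusted p = 0.12). Inflorescence was 5.23-fold above callus (adjusted p = 0.0085), a call lost without inflorescence microarray B (adjusted p = 0.052). Inflorescence and leaf did not pass the test (log2 difference -0.65, adjusted p = 0.33), but passed it without root microarray A (adjusted p = 0.020) or B (adjusted p = 0.019), which left the difference itself as it was. Callus and root did not pass the test (log2 difference -0.70, adjusted p = 0.27, and 0.13 with adjusted p = 0.60 without root microarray A) except without root microarray B (-1.53, adjusted p = 0.0028). The leaf markers were also high on the inflorescence microarrays, with sums of 3514 and 2891 NEU against 40.4 and 49.1 in callus, and their part in the KNAT4 levels was not tested.

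**Figure D1:**
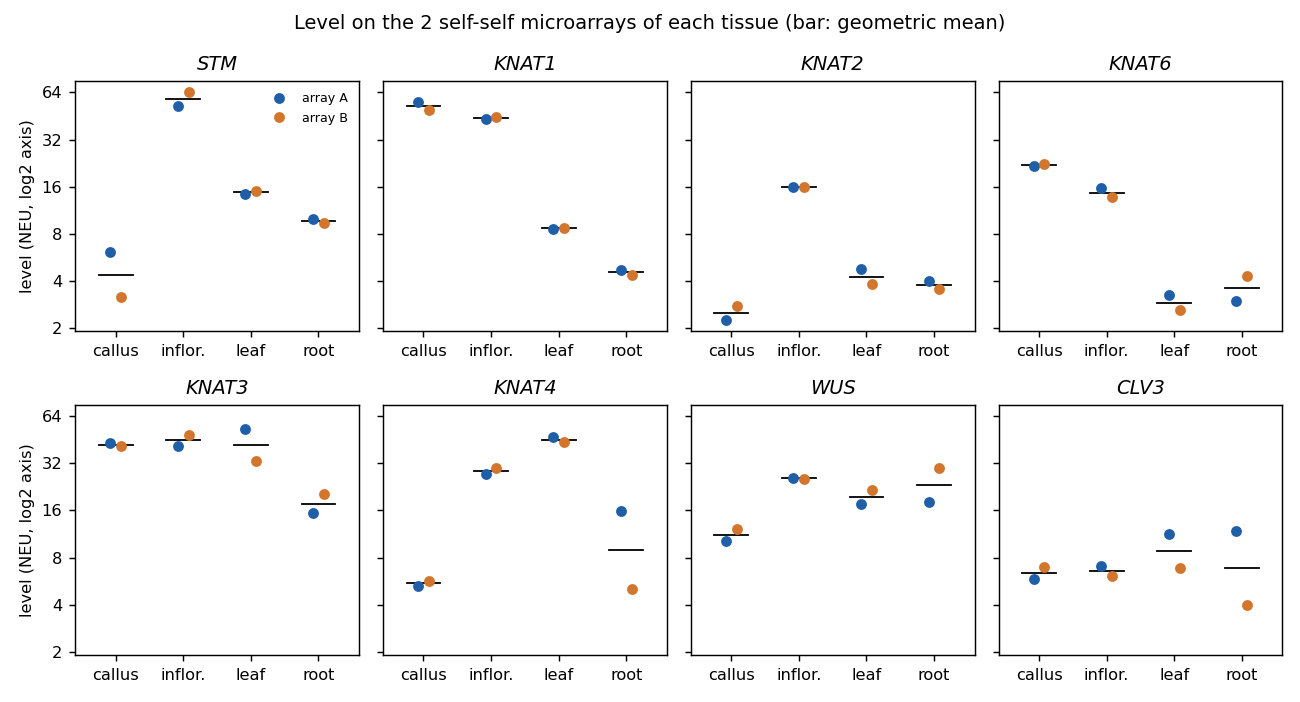
Level of the 8 genes in NEU (log2 axis) on the self-self microarrays of callus, inflorescence, leaf and root. Each point is 1 microarray (A or B) and each bar is the geometric mean of the 2. STM and KNAT2 are highest in inflorescence, KNAT1 and KNAT6 are high in both callus and inflorescence, KNAT4 is highest in leaf, and the points of KNAT4 (15.8 and 5.02 NEU) and CLV3 (11.9 and 3.99 NEU) in root lie far apart.

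WUS in inflorescence did not pass the test against leaf or root. It measured 25.8 and 25.4 NEU in inflorescence, 18.1 and 29.7 in root, 17.5 and 21.6 in leaf, and 10.2 and 12.3 in callus. Root microarray B gave the highest level of all 8 and the 2 callus microarrays the lowest. Inflorescence over root had a log2 difference of 0.14 (adjusted p = 0.69, 95% interval of the fold 0.709 to 1.72, and -0.21 with adjusted p = 0.47 without root microarray A) and inflorescence over leaf 0.40 (adjusted p = 0.28, 95% interval of the fold 0.845 to 2.05). Callus was below inflorescence (2.28-fold, adjusted p = 0.013), root (2.07-fold, adjusted p = 0.017) and leaf (1.74-fold, adjusted p = 0.044). These 3 calls were not stable. Callus against leaf lost its call in 6 of the 8 fits that left out 1 microarray (adjusted p up to 0.18) and with quantile normalization (adjusted p = 0.12), callus against inflorescence without callus microarray A (adjusted p = 0.068) or without inflorescence microarray A (adjusted p = 0.069) or B (adjusted p = 0.067), and callus against root without callus microarray A (adjusted p = 0.086), without root microarray B (adjusted p = 0.052) or with quantile normalization (adjusted p = 0.062).

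CLV3 gave 7.104 and 6.11 NEU in inflorescence, 11.4 and 6.89 in leaf, 11.9 and 3.99 in root, and 5.82 and 6.97 in callus. The groups of microarrays overlapped, since both the highest and the lowest level were in root. No pair of tissues passed the test (adjusted p = 0.47 to 0.96), and the fold between inflorescence and leaf had a 95% interval of 0.567 to 3.18 in favor of leaf. That interval is wide, and these microarrays do not tell the folds inside it apart. Without root microarray A the log2 difference moved from -0.36 to -1.15 for root over leaf (adjusted p = 0.063), from -0.07 to 0.72 for inflorescence over root (adjusted p = 0.15) and from -0.11 to 0.68 for callus over root (adjusted p = 0.17).

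Across the 4 tissues together, 7 of the 8 genes differed (all but CLV3), where 70.4% of all tested probes did. KNAT3 lost this call without root microarray A (adjusted p = 0.056), and WUS lost it without any 1 of the callus or inflorescence microarrays (adjusted p = 0.065 to 0.12). In pairs of tissues, 4 of 8 were called for inflorescence over leaf, all 4 of them the class I KNOX genes and all higher in inflorescence, where 38.7% of probes were called. For inflorescence over root, all 6 KNOX genes were called and all were higher in inflorescence, where 48.7% of probes were called, and the same 6 were called without root microarray A. STM, KNAT2, KNAT4 and WUS were higher in inflorescence than in callus (4 of 8, where 37.1% were called). Between callus and leaf, KNAT1 and KNAT6 were higher and STM, KNAT2, KNAT4 and WUS lower in callus (52.5% of probes called), and between callus and root, KNAT1, KNAT6 and KNAT3 were higher and STM and WUS lower in callus (51.3% called). KNAT1, KNAT3 and KNAT4 were lower in root than in leaf (3 of 8, where 32% were called). All these shares of probes count calls in either direction. Of the calls, 54.5% were higher in inflorescence than in leaf, 45.8% higher in inflorescence than in root, and 58.1% higher in inflorescence than in callus. Between root and leaf, 59.5% of the calls were higher in root. In NEU the median of all probes was -0.21 on the log2 scale for callus over leaf and -0.27 for callus over root, and 46.8% and 37.6% of the calls were higher in callus. With quantile normalization these medians were 0.09 and 0.05 and the shares were 56.7% and 53.8%. Relative to the median in NEU, STM was at -0.87 and KNAT1 at 3.80 for callus over root.

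The direct root/leaf microarrays put root and leaf RNA on the same slide. Of the 8 genes, 5 were lower in root (STM, KNAT1, KNAT2, KNAT3 and KNAT4), where 30.6% of probes were, and KNAT6 was higher, where 38.7% were. In all, 69.3% of probes were called, a share near the 6 of 8 seen here. STM gave signals of 461 (A) and 383 (B) in root against 978 and 848 in leaf, with log2 ratios of -1.08 and -1.15, and the fitted ratio was -1.11 ± 0.05 (SE, adjusted p = 9.9e-08). KNAT1 gave 375 and 291 in root against 667 and 549 in leaf (log2 ratio -0.87 ± 0.04, SE, adjusted p = 6.7e-08). For both genes the leaf channel was above the root channel on each microarray.

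KNAT2 was dim in both tissues, with signals of 117 and 183 in root and 188 and 275 in leaf, all flagged well above background. Negative control spots had a 95th percentile of 58.9 (A) and 157 (B) in the root channel, the latter near the KNAT2 signal. In the leaf channel it was 67.4 and 39.0. The fitted log2 ratio of KNAT2 was -0.64 ± 0.06 (SE, adjusted p = 1.8e-05). KNAT6 was the only one of the 8 genes called higher in root. Its signals were 340 and 510 in root against 223 and 201 in leaf, with log2 ratios of 0.61 and 1.34 and a fitted ratio of 0.98 ± 0.14 (SE, adjusted p = 0.00025). The difference between A and B was the largest of the 8 genes on these microarrays, but the sign was the same on both. Between the self-self microarrays KNAT6 had a log2 difference of 0.30 for root over leaf, which did not pass the test.

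Both class II genes were lower in root, KNAT4 by the most of the 8 genes. KNAT4 gave 464 and 361 in root against 3402 and 2806 in leaf, with log2 ratios of -2.87 and -2.96 (fitted ratio -2.92 ± 0.22, SE, adjusted p = 2.9e-06), or 7.55-fold lower in root. KNAT3 gave 1413 and 1220 in root against 2946 and 2496 in leaf (fitted ratio -1.05 ± 0.08, SE, adjusted p = 3.1e-06). WUS and CLV3 did not pass the test. WUS gave 667 and 988 in root against 762 and 1102 in leaf (log2 ratio -0.18 ± 0.17, SE, adjusted p = 0.38), and CLV3 gave 574 and 538 against 625 and 575 (log2 ratio -0.11 ± 0.06, SE, adjusted p = 0.13). Between the self-self microarrays the log2 difference of root over leaf was 0.25 for WUS (adjusted p = 0.50) and -0.36 for CLV3 (adjusted p = 0.63). Both genes were lower in root on each direct microarray. Both passed the test with normexp background correction and loess (WUS -0.23, adjusted p = 0.00022, and CLV3 -0.16, adjusted p = 0.0022). With this setting the median of all probes was -0.04 against 0.03 in the main fit, and 8770 of 16210 calls were lower in root. CLV3 passed the test too with the self-self ratio subtracted as a dye term (-0.21, adjusted p = 0.018). WUS also passed it without silique/inflorescence microarray A (adjusted p = 0.0047) or B (adjusted p = 0.0047).

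**Figure D2:**
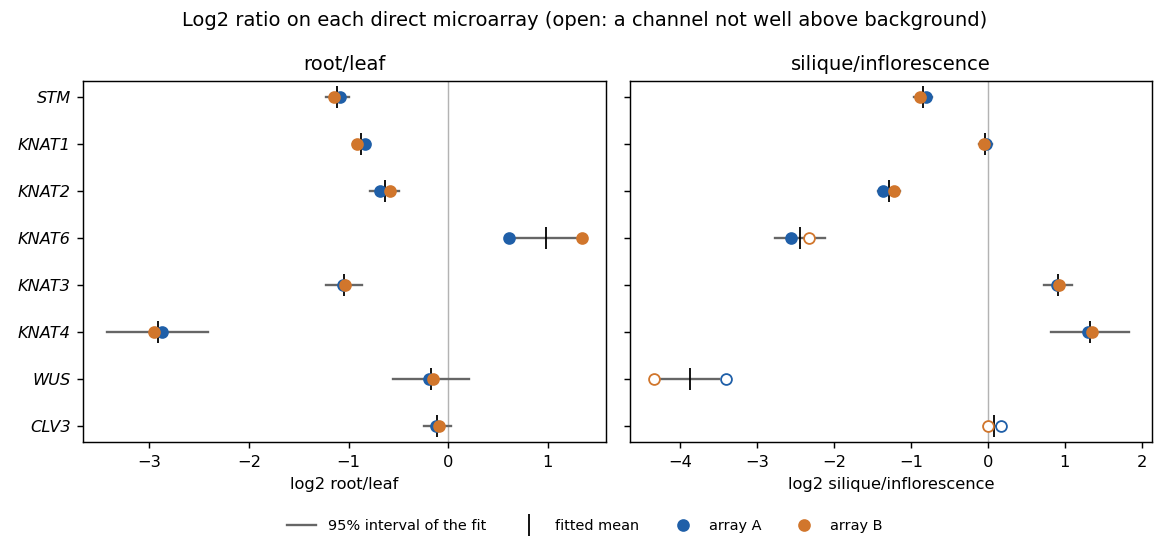
Log2 ratio of the 8 genes on the direct root/leaf (left) and silique/inflorescence (right) microarrays. Points are single microarrays, open where a channel was not well above background, ticks are fitted means and lines their 95% intervals. KNAT6 is the only gene above 0 for root/leaf (0.61 and 1.34), and KNAT3 and KNAT4 are above 0 for silique/inflorescence (0.90 to 1.35) where STM, KNAT2, KNAT6 and WUS are below.

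On the direct silique/inflorescence microarrays the 2 classes of KNOX genes went opposite ways, except KNAT1. STM, KNAT2, KNAT6 and WUS were lower in silique (4 of 8, where 32.7% of probes were lower), KNAT3 and KNAT4 were higher (2 of 8, where 33.1% were higher), and 65.9% of probes were called in all. KNAT6 gave 271 and 174 in silique against 1589 and 873 in inflorescence, with log2 ratios of -2.55 and -2.33, and a fitted ratio of -2.44 ± 0.14 (SE, adjusted p = 6.4e-07). Its silique signal was well above background on 1 of the 2 microarrays (A), and with normexp and loess the fitted ratio was -1.32. KNAT2 gave 523 and 422 against 1345 and 981 (fitted ratio -1.29 ± 0.06, SE, adjusted p = 2.0e-07). These signals lay apart on both microarrays.

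STM gave 3260 and 3119 in silique against 5672 and 5756 in inflorescence (fitted log2 ratio -0.84 ± 0.05, SE, adjusted p = 7.7e-07), and both channels were well above background on each microarray. KNAT1 gave 2557 and 2262 against 2597 and 2339, which is a ratio of -0.04 ± 0.04 (SE, adjusted p = 0.44) with a 95% interval of the fold of inflorescence over silique of 0.966 to 1.09. KNAT4 gave 5761 and 5177 in silique against 2345 and 2034 in inflorescence (1.32 ± 0.22, SE, adjusted p = 0.00066), and KNAT3 gave 4222 and 3149 against 2259 and 1664 (0.91 ± 0.08, SE, adjusted p = 1.0e-05). For these class II genes, silique was brighter on each microarray. Silique was the red channel on both, and KNAT3 was also brighter in red on the self-self microarrays of inflorescence, by 0.54 and 0.56 on the log2 scale. With the mean self-self ratio of each gene over all 4 tissues subtracted as a dye term, the ratio of silique over inflorescence was 0.73 for KNAT3 and 1.49 for KNAT4. For KNAT3 this mean also holds callus, leaf and root, with lower ratios of -0.12 to 0.33, so that it is below the inflorescence ratios. For KNAT4 it holds the -1.29 of root microarray A. The inflorescence ratios alone were not used as a dye term. Among the 5 leaf markers, 4 were also higher in silique than in inflorescence (median log2 ratio of the list 1.51), and 5 of the 6 inflorescence markers were lower (median -2.44), and the part of either in the KNOX values was not tested.

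WUS gave signals of 1595 and 1536 in inflorescence and of 151 and 75.5 in silique, where it was not well above background on either microarray. Silique signals of negative control spots had medians of 45.8 (A) and 61.3 (B) and a 95th percentile of 54.3 and 74.6. The fitted log2 ratio of WUS was -3.88 (adjusted p = 8.9e-08). With normexp and an offset of 50, which raises dim signals, it was -1.83. In the normalized means, silique was also set no lower than the dimmest probe well above background, and inflorescence was then 12.6-fold above silique. This floor is not a detection limit, and the fold with normexp was lower. CLV3 was near background in both tissues. It gave 55.3 and 66.9 in silique and 49.2 and 60.2 in inflorescence, and only the inflorescence channel of microarray B was well above background, so that no fold is given. On the self-self microarrays of inflorescence, extracted on another day, CLV3 signals were 393 to 432, and 7.50 to 11.5 times the local background before processing, against 1.79 times in the inflorescence channel of both direct microarrays. The part of the day or of the label in this gap was not tested.

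The other KNOX genes were KNAT5, KNAT7 and KNATM. KNAT7, a class II regulator of secondary cell walls, was higher in root than in leaf (log2 ratio 1.60, with 1.76 on A and 1.44 on B) and in silique than in inflorescence (1.85). KNATM, a KNOX protein without a homeodomain, was lower in root (-0.29). KNAT5, also of class II, was lower in root (-0.13) and higher in silique (0.62), the directions of KNAT3 and KNAT4.

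BELL partners were mostly lower in root on the direct microarrays. Of 13 genes, 11 were lower and none higher in root than in leaf, where 30.6% of all probes were lower and 38.7% higher, with a median log2 ratio of -1.10 against 0.03 over all probes, and BLH6 was lowest (-2.28). Between the self-self microarrays 4 of the 13 were called lower and none higher, with a median of -0.33 against 0.20 over all probes. There 32% of all probes were called in either direction. For silique/inflorescence, 6 were higher and 4 lower, where 33.1% of all probes were higher and 32.7% lower, with a median of 0.17. BLH1 was the highest (1.001) and ATH1, a partner of STM in the meristem, was the lowest (-3.31, and -2.11 with normexp and loess). The KNOX repressors AS1, AS2, BOP1, BOP2, FIL and YAB3 act in leaf primordia and leaf bases. On the direct microarrays 5 of these 6 were lower in root (30.6% of all probes), with a median of -1.12. Between the self-self microarrays 3 of the 6 were called lower, with a median of -1.53. The direct call of AS2 rests on root/leaf microarray A alone (-0.48), since its spot on microarray B was flagged as an outlier. The value left out there had the opposite sign (0.93). YAB3 had the lowest ratio (-3.06, and -2.41 with normexp and loess), with FIL at -2.78 and BOP1 not passing the test (-0.60). In silique 5 of 6 were again lower (32.7% of all probes), and AS1 was the exception (0.0013, adjusted p = 1). YAB3 was not well above background in silique. With silique set no lower than the floor used for WUS, inflorescence was 9.07-fold above silique. The log2 ratio of YAB3 for silique over inflorescence was -1.46 with normexp and loess, a lower fold. Of the organ boundary genes CUC1, CUC2 and CUC3, none passed the test between root and leaf at an adjusted p of 0.05, none did at an unadjusted p of 0.05, and all 3 did with normexp and loess. Of all probes, 69.3% were called between root and leaf, and 16210 probes were called with normexp and loess. CUC2 and CUC3 were lower in silique (2 of 3, where 32.7% of all probes were). With the same floor, inflorescence was 6.63-fold above silique for CUC2, and its log2 ratio was -1.01 with normexp and loess, a lower fold.

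**Figure D3:**
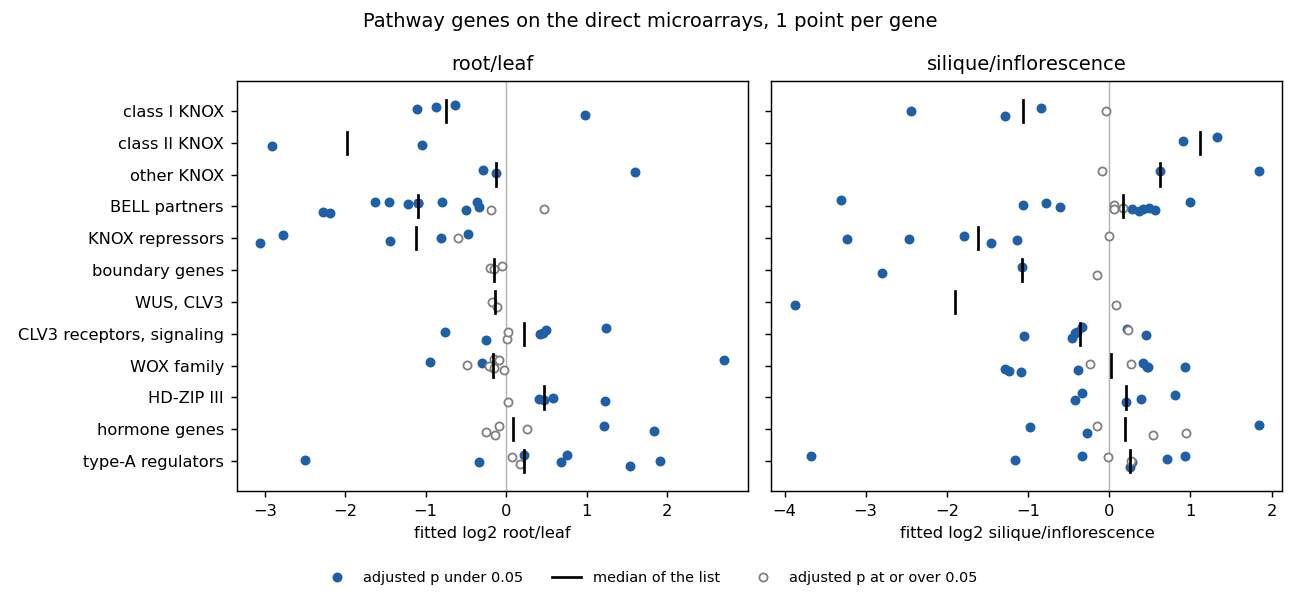
Fitted log2 ratio of each pathway gene for root/leaf (left) and silique/inflorescence (right), 1 point per gene, filled where the adjusted p was under 0.05, with the median of each list as a black line. BELL partners have a median of -1.10 and KNOX repressors of -1.12 for root/leaf, and ATH1, YAB3, CUC2, WUS and ARR16 are far below 0 for silique/inflorescence.

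Of 8 tested genes for CLV3 receptors and signaling, 4 were higher and 2 lower in root, with BAM3 highest (1.25) and BAM2 lowest (-0.76), which is near the shares over all probes (38.7% and 30.6%). In silique 2 were higher and 5 lower, where 33.1% and 32.7% of all probes were. CLV1, the receptor kinase for CLV3, was higher in root (0.42) and in silique (0.45), and BAM2 was lowest in silique (-1.05). Of 10 tested genes of the WOX family, to which WUS belongs, WOX14 was the only one higher in root (2.71), where 38.7% of all probes were. WOX1 was the lower of 2 that were lower in root (-0.94), where 30.6% of all probes were. With normexp and loess 7 of the 10 were lower, where 8770 of 16210 called probes were lower. In silique 4 were higher and 4 lower, near the shares over all probes (33.1% and 32.7%), with WOX2, an embryo gene, highest (0.93). WOX6 was the lowest, and its level in inflorescence was 1.94-fold that in silique with the floor used for WUS. It lost its call with normexp and loess (-0.27, adjusted p = 0.051). HD-ZIP III genes, which set the upper side of organs and act in the vasculature, were higher in root in 4 of 5 cases, with ATHB15 highest (1.22), where 38.7% of all probes were higher. Between the self-self microarrays 2 of the 5 were called higher in root, where 32% of all probes were called in either direction. In silique, ATHB8 was the highest of 3 that were higher (0.81), where 33.1% of all probes were higher. ATHB15 was the lowest of 2 that were lower (-0.42), where 32.7% of all probes were lower.

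The hormone genes downstream of KNOX proteins were split. The cytokinin synthesis genes IPT7 (1.83) and IPT5 (1.21) were higher in root (2 of 6, near the 38.7% of all probes) and the other 4 of the 6 did not pass the test. With normexp and loess 3 were called lower, where 8770 of 16210 called probes were lower. IPT7 gave 1.03 on microarray A and 2.64 on microarray B, and 1.17 with normexp and loess. IPT5 was also higher in silique (1.85), although inflorescence was well above background on 1 of the 2 microarrays and the ratio was 0.41 with normexp and loess. GA20ox1, a gibberellin synthesis gene, was in inflorescence 1.79-fold its level in silique with the floor used for WUS. Its log2 ratio was -0.22 with normexp and loess, a lower fold. Type-A response regulators, which cytokinin induces, were higher in root in 5 of 9 cases, where 38.7% of all probes were, with ARR3 highest (1.91, and 1.301 with normexp and loess) and ARR16 lowest (-2.50). In silique 4 were higher, with ARR9 highest (0.93), and 3 lower, with ARR16 again lowest (-3.67, silique well above background on 1 of the 2 microarrays, and -2.13 with normexp and loess), counts near the shares over all probes (33.1% and 32.7%).

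Both channels of a self-self microarray were labelled as the same RNA, so that their ratio would show technical error alone where the label holds. Root microarray A went against it for the leaf markers, as given above. Of the 64 ratios of the 8 genes on 8 microarrays, 61 lay between -0.27 and 0.33 on the log2 scale. KNAT4 on root microarray A gave 1315 in green and 538 in red, a log2 ratio of -1.29. On root microarray B it gave 295 and 287. The leaf markers moved along with it, at a summed signal 3.37 times as high in green as in red on root microarray A and 1.02 times on root microarray B. The other self-self microarrays ranged from 0.911 (callus A) to 1.83 (leaf A) in this ratio, with 1.33 and 1.54 in inflorescence. The leaf markers' part in the KNAT4 value was not tested. KNAT3 was brighter in red on both inflorescence microarrays, with 2949 over 2030 (A) and 3824 over 2585 (B).

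**Figure D4:**
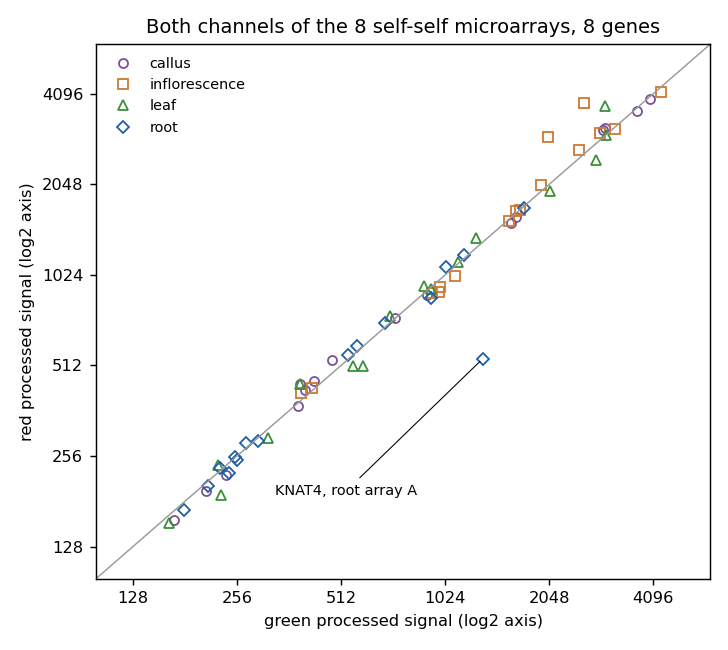
Red against green processed signal (both log2 axes) of the 8 genes on the 8 self-self microarrays, 1 point per gene and microarray, with the line of equal signal. KNAT4 on root microarray A (1315 in green, 538 in red) is the point far below the line, and the 2 inflorescence points farthest above it are KNAT3 (2949 over 2030 and 3824 over 2585).

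The genes most like each member were found by the Euclidean distance between profiles of 6 values (4 tissue means of log2 NEU minus their average, and both direct log2 ratios) among 9445 other genes with a symbol. KNAT4 had the closest neighbor, PDF1B at a distance of 0.092, followed by PTAC7 (0.28). SPL2 (0.53) and CRY3 (0.66) were most like STM, MYB116 (0.47) and CYCD7;1 (0.49) most like KNAT2, and KCS1 (0.41) and ERF8 (0.47) most like KNAT3. KNAT1 (ELI3-2 at 0.90 and ILL6 at 1.001) and KNAT6 (SRS7 at 1.02 and CYCD3;1 at 1.23) had no neighbor as near. No neighbor is given for WUS and CLV3, whose silique signal was not well above background, so that their profiles hold no measured silique/inflorescence ratio. For KNAT6 the silique signal was well above background on microarray A only. The ratio of -2.44 in its profile was -1.32 with normexp and loess. The neighbors were not required to be well above background, and the root means include root microarray A.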

How the data were processed

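The authors deposited the scanner output of Agilent Feature Extraction for each microarray, which gives raw and local background intensity per spot, processed intensity (background subtracted, dyes normalized), and flags (software 6.1.1 per the file headers, and 7.1.1 for silique/inflorescence; the submitters' processing notes name Agilent Feature Extraction 8.1). The authors also deposited the log10 ratio of red over green, in the scanner files and as a table that differed from them by at most 1.07e-07. Flags of other units (outlier, saturated, well above background) are as deposited.

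Log10 ratios were converted to log2. Ratios of all 12 microarrays, or log2 NEU of the 8 self-self microarrays, were fitted in limma (lmFit, then eBayes with trend) as 1 mean for each RNA or RNA pair, two-sided, and Benjamini-Hochberg adjusted p under 0.05 over all gene probes tested. Control spots and spots flagged as outliers were left out (none of the 8 genes was flagged), and saturated spots were kept. Channel averaging and NEU followed the methods of the study. The number of microarrays limits the precision. The fits were also run on simulated data with independent noise for each microarray. The simulation held no slide series, dye effect or aberrant microarray, so that it cannot vouch for the calls under these, and its outcome is not used here.

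The genes and lists were chosen with earlier results of these data known. In every comparison all 8 genes are named, with neighbors by profile for 6 of them, and of each list the called gene with the largest ratio in each direction on the direct microarrays. Others (KNAT5, FIL, A9, LFY, BOP1, AS1, CLV1, CUC3, IPT5) were named after their values were seen. Symbols came from a RefSeq table of TAIR10.1, which held 21191 of 21500 probe names. The build of the array design is not given in the sources used here, and coordinates are left out. Affymetrix probe sets could not be assigned to genes, and Affymetrix and MPSS data were not analysed here. R 4.3.3, limma 3.58.1, Python 3.11.15, numpy 2.4.6, pandas 2.3.3 and matplotlib 3.10.9 were used.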

Additional observations from a re-analysis of the deposited data

Results flagged for a closer look

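The 2 channels of a self-self microarray, labelled as the same RNA, are not used as a comparison, and 3 of the 64 ratios of the 8 genes exceeded 0.5 on the log2 scale in either direction. KNAT4 had a red/green log2 ratio of -1.29 on root microarray A. KNAT3 had ratios of 0.54 and 0.56 on inflorescence microarrays A and B.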

How the results depend on the processing

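On the direct microarrays, 301 of 309 values of the 8 genes under alternatives kept their side of the threshold, and on the self-self microarrays 892 of 944 did. Of values not called under either setting, 2 and 36 changed sign, and none did when called. Many of these alternatives left out a microarray of another RNA or RNA pair. That leaves the ratio as it was and changes only the shared technical spread, so that these counts do not measure how stable the ratios are. With the self-self microarrays as the source of root/leaf, 3 of 8 genes and 6856 probes were called in place of 6 and 14853, and STM (adjusted p = 0.19), KNAT2 (0.57) and KNAT6 (0.39) lost their calls. For callus over root, 3 genes were called in place of 5 with quantile normalization, and 3 with normexp and quantile. A fit of leaf microarray B and both root microarrays alone, chosen after seeing the data, called 0 genes and 0 probes for root/leaf by limma (5707 probes at an unadjusted p of 0.05). It holds 3 microarrays, and the lone leaf microarray is assumed to vary like root. With these 3 as 1 slide series in a random block of all self-self microarrays, 3 genes and 6597 probes were called. Taking the slide series as a random block, STM for callus over root (adjusted p = 0.059), KNAT4 for inflorescence over root (0.067) and WUS for callus over leaf (0.056) lost their calls.

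Within the main slide series (both callus, both inflorescence and leaf A), KNAT6 for inflorescence over callus (-0.58, adjusted p = 0.032), KNAT4 for inflorescence over leaf (-0.70, 0.032) and CLV3 for callus over leaf (-0.84, 0.038) gained calls. Leaving out 1 microarray, the number of genes called ranged from 2 to 4 for inflorescence over callus (2 without inflorescence microarray B), and the number of probes called from 3705 to 9018 for inflorescence over leaf and from 6299 to 10899 for inflorescence over root, with the lowest counts without inflorescence microarray B and 4781 and 6819 without A. The letters A and B did not pair the microarrays (correlations of A minus B between tissues from -0.20 to 0.17, and 0.0080 between the direct pairs). With the replicate block on the direct microarrays, root/leaf had 6 of 8 genes and 14649 probes called, silique/inflorescence had 6 and 13944, and no call of the 8 genes changed. Alternatives planned for the Affymetrix microarrays were not run. With probes required to be well above background in both channels of both microarrays, KNAT6, WUS and CLV3 could not be tested for silique/inflorescence, which the dim silique channel limits. The causes of these changes were not tested.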
